A study of Mus musculus with 25 samples.

Results

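The late step of classical macrophage activation was examined by comparing bone marrow-derived macrophages (BMDMs) after 12 h and after 24 h of combined interferon-γ (IFN-γ) and lipopolysaccharide (LPS). These 6 RNA-seq samples, 3 at each time, are the members of the comparison and were taken from the 25 samples of the series by their labels. BMDMs from C57BL/6 mice were grown with 25 ng/ml M-CSF for 4 days and then received 100 U/ml IFN-γ with 100 ng/ml LPS, so that both groups carried both agents and differed only in time by the labels. The labels do not say whether IFN-γ was given before LPS, while the text of the study calls these cells primed with IFN-γ, so the time of IFN-γ exposure may be longer than the stated hours. The study describes its replicates as biological, from independent RNA samples, but does not say whether they came from separate mice or cultures. The p-values rest on the spread between such samples, estimated together over these 6 and the control, 1 h and 4 h samples. The other groups used for context were BMDMs without stimulation, labelled as cultured for 4 h, BMDMs after 1 h and 4 h of IFN-γ with LPS, and BMDMs after 12 h of 10 ng/ml IL-4 or IL-13, each with 3 samples.

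LPS is sensed by TLR4, which drives NF-κB, MAP kinases and, through TRIF and IRF3, a wave of interferon-β. IFN-γ acts through JAK kinases, STAT factors and IRF1. Together they switch on cytokines, chemokines, nitric oxide synthase and the machinery of antigen presentation, and the same signals also induce inhibitors that later limit the response. The promoters of many interferon-induced genes hold an interferon-stimulated response element (ISRE), bound by IRF and STAT factors, or a gamma-activated site (GAS), bound by STAT dimers.

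From 12 h to 24 h, genes of the inflammatory and interferon response fell, while fewer genes rose, among them Saa3, Lyz2, Marco and the ferritin chains. Of 9568 genes tested, 508 were upregulated at 24 h and 852 were downregulated at an FDR of at most 0.01. These are 5.31% and 8.9% of the genes tested, and the counts of each gene list below are to be read beside them. By at least 2-fold, 137 genes (1.43%) rose and 227 (2.37%) fell. The 12 h and 24 h libraries did not overlap for 136 of these 137 genes and for all 227. Groups that do not overlap thus set no single gene of this size apart. The median log2 fold change of all genes tested was 0.03. Upregulated genes made up 37.4% of the calls, against 52.2% with scaling by total counts and 25.7% with DESeq2. The count of upregulated genes was 337 without replicate 1 of 12 h.

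**Figure D1:**
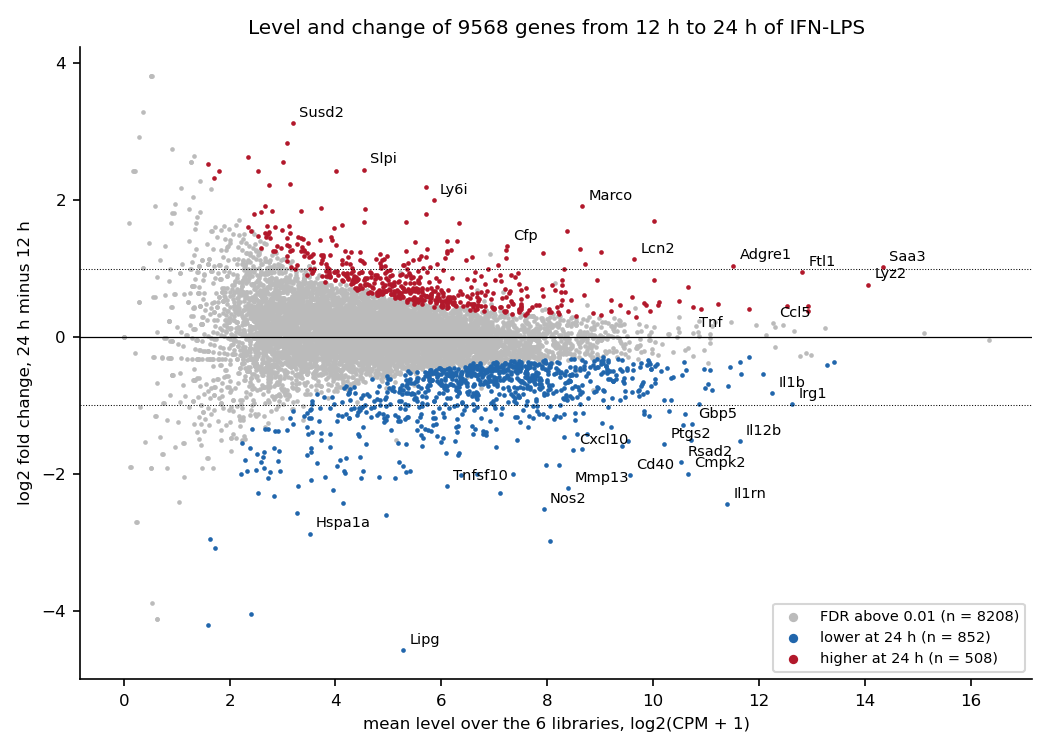
Each point is 1 of the 9568 genes tested, with its mean level over the 6 libraries as log2(CPM + 1) on the horizontal axis and its log2 fold change, 24 h minus 12 h, on the vertical axis. The 508 upregulated genes are red, the 852 downregulated genes are blue, and dotted lines mark a 2-fold change. Saa3 and Lyz2 stand at the right among the upregulated genes, and Il1rn, Il12b and Cd40 among the downregulated genes of high level.

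Several properties of the libraries moved with time. Total counts on genes were 2516675 to 2903776 at 12 h and 3003187 to 3357300 at 24 h, and 1751350 to 2077653 against 2149688 to 2532496 without the ribosomal precursor Rn45s, which was left out. The share of Rn45s counts on the antisense strand was 0.0827% to 0.122% at 12 h and 0.0104% to 0.0162% at 24 h. For all other genes the antisense share was 1.34% to 1.39% at 12 h and 1.02% to 1.08% at 24 h. The labels name no library batch, but the IL-4 and IL-13 libraries were also low in these shares while the control and earlier libraries were not, so a library difference and time cannot be told apart here. For this reason the IL-4 and IL-13 values against control, which share no sample with the 12 h and 24 h groups, are given as medians beside the gene lists below. In a principal component analysis of the 500 most variable genes, the first component (66.2% of the variance) separated the times and the second (14.6%) set replicate 3 of 12 h, at -12.9, apart from replicates 1 and 2, at 7.24 and 5.41. All 9 macrophage markers were tested, 2 rose and 3 fell, and their summed level was 18241 to 21550.2 CPM at 12 h and 27240.2 to 30749 CPM at 24 h. This sum was carried by Lyz2 and Adgre1, since Cd14, Fcgr1 and Mertk fell and the other 4 markers were not called. Markers of other cell types were at or near 0 for T and NK cells (7 of 8 at 0, summed level 0 to 0.52 CPM at 12 h and 0 at 24 h), B cells (0 to 1.05 and 0 to 0.916 CPM) and mast cells (0 to 0.526 and 0.456 to 0.776 CPM), and low for dendritic cells (12.1 to 22.4 and 16.02 to 19.4 CPM), neutrophils (6 of 10 at 0, 25.2 to 26.3 and 20.1 to 22.4 CPM), endothelium (44.0 to 51.0 and 34.5 to 45.2 CPM), erythroid cells (4.16 to 4.69 and 0.456 to 3.66 CPM) and fibroblasts (65.0 to 84.7 CPM at 12 h and 74.1 to 95.8 CPM at 24 h), with 0 markers of these types called by edgeR. Only 3 neutrophil, 1 dendritic, 1 endothelial and 4 fibroblast markers had enough counts to be tested. For T and NK, B, mast and erythroid cells 0 markers were tested, so that none of these could be called. The part of these cell types in the results was not tested. In bulk RNA, fewer cells of a type and less RNA per cell cannot be told apart.

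**Figure D2:**
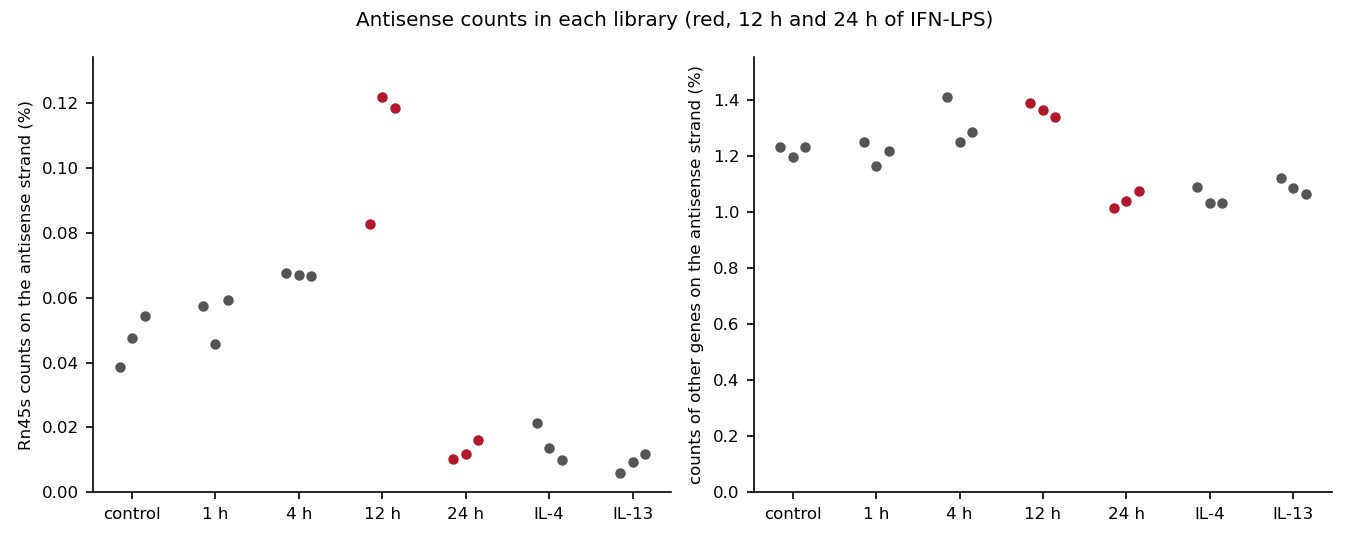
Share of counts on the antisense strand in each library, in percent, for Rn45s on the left and for all other genes on the right, with 1 point per library. The 12 h and 24 h libraries of IFN-γ and LPS are red, and the 24 h libraries lie with the IL-4 and IL-13 libraries at the low end of both panels.

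The promoters of 4 interferon-induced genes are shown first because they carry the same kind of motif while the genes moved in different directions. Rsad2 (viperin), Ifit1 and Gbp5 fell from 12 h to 24 h and Bst2 (tetherin) rose. Each line gives 250 bases before to 50 bases after the RefSeq start on the strand of the gene, from GRCm38.p6, at chr12:26456403-26456702 (minus strand), chr19:34640639-34640938 (plus), chr3:142496684-142496983 (plus) and chr8:71537423-71537722 (minus). Capitals mark the ISRE core GAAANNGAA or the GAS TTCNNNGAA on either strand, and neighbouring matches can overlap.
Rsad2: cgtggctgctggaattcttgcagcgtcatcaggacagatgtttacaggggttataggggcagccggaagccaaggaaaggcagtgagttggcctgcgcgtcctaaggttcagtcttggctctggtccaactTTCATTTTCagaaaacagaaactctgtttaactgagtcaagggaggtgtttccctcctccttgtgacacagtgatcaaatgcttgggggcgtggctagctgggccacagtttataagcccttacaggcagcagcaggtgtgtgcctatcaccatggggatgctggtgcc
Ifit1: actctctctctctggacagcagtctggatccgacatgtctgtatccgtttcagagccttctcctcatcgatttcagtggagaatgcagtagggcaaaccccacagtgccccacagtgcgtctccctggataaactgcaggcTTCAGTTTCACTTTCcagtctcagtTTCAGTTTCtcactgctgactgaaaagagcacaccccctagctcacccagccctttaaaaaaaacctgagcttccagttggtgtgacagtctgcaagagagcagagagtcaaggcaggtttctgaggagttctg
Gbp5: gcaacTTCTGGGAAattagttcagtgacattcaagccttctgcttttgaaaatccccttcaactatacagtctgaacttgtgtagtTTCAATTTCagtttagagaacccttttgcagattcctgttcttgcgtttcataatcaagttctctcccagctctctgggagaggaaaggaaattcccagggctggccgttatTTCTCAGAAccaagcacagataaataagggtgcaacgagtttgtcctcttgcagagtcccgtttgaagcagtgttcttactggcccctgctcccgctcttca
Bst2: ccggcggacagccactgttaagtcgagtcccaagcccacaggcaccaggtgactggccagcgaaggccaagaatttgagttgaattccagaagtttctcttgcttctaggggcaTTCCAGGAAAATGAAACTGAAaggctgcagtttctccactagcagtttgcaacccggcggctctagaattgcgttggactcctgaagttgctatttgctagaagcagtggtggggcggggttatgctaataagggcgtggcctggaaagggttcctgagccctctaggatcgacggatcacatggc
The ISRE core was matched 1 time in Rsad2 (first base 119 bases upstream of the start), 3 times in Ifit1, 1 time in Gbp5 beside 2 GAS matches, and 2 times in Bst2 beside 1 GAS match. Of the 7766 tested genes with a RefSeq promoter, 7.74% held the ISRE core and 6.91% the GAS. For the genes that rose or fell by 2-fold, 73.7% and 71.8% had a promoter in the table, which is too few, so that a comparison of their motif shares is void.

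The genes that had been induced at 4 h were those that most often fell. Induction at 4 h against control, a comparison that shares no sample with the late step, used the same FDR with a log2 fold change threshold of 1.5, and 1086 genes (11.4%) were induced and 1094 (11.4%) repressed. Of the 1086 induced genes, 427 (39.3%) were downregulated from 12 h to 24 h and 43 (3.96%) were upregulated, with a median log2 fold change of -0.39. Among the 1094 genes repressed at 4 h, 29 (2.65%) fell further and 72 (6.58%) rose, with a median of 0.21. The remaining 7388 genes rose and fell in nearly equal numbers, 393 and 396. Genes induced at 4 h thus made up 50.1% of all downregulated genes and 8.46% of all upregulated genes.

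**Figure D3:**
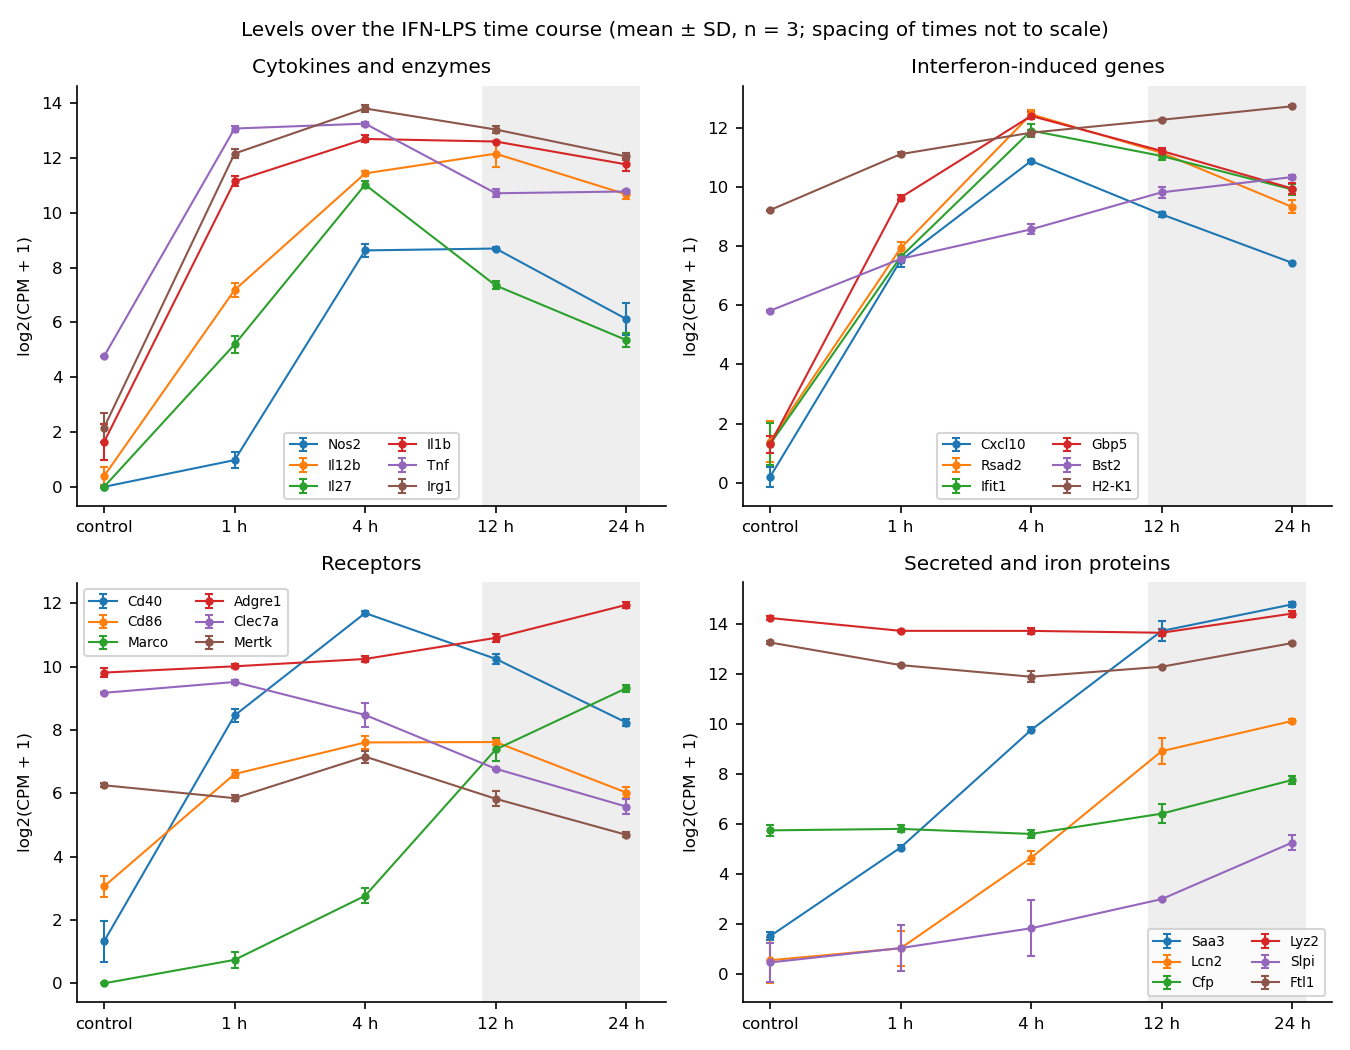
Mean level over 3 libraries as log2(CPM + 1), with SD, for control BMDMs and for 1, 4, 12 and 24 h of IFN-γ and LPS, in 4 panels by role. The grey band marks the 12 h and 24 h groups. Nos2, Il27, Cxcl10, Gbp5 and Cd40 go down in the band, whereas Marco, Saa3, Slpi and Adgre1 go up.

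Nos2, the inducible nitric oxide synthase that defines classical activation in mice (chr11:78920787-78960226), was one of the genes that fell most. It was at 402, 429 and 410.0 CPM at 12 h and 109.5, 61.8 and 48.1 CPM at 24 h, so that the lowest 12 h library lay above all 24 h libraries (log2 fold change -2.51, SE 0.24, FDR 2.68e-05). Its mean at 4 h was 398 CPM and in control 0 CPM. Irg1, which makes itaconate (chr14:103047012-103056573, RefSeq symbol Acod1), was at 7846, 8284 and 9182 CPM at 12 h and 3858, 4577 and 4385 CPM at 24 h and fell (log2 fold change -0.98, SE 0.09, FDR 1.04e-11). Slc7a2, an arginine transporter that feeds nitric oxide synthesis, was at 3724, 3865 and 3909.8 CPM at 12 h and 2589.9, 2679.8 and 2659 CPM at 24 h (log2 fold change -0.54, SE 0.08, FDR 5.26e-07). Of the 9 tested genes for nitric oxide, arginine, itaconate and tetrahydrobiopterin, 4 fell and 1, Spr, rose (median -0.28, against 0.25 with IL-4 and 0.12 with IL-13), and the call of Spr was lost in DESeq2 (FDR 0.0392) and in 5 of the 6 fits that left out 1 library. Arg1, the arginase of alternative activation, stayed below the filter, at 0, 1.17 and 0.52 CPM at 12 h and 0, 0.916 and 1.16 CPM at 24 h.

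Cytokine genes mostly fell, with 12 of 23 tested members downregulated and 1 upregulated. Of the 23, 22 were induced at 4 h, and 52.2% of the list fell, against 39.3% of all genes induced at 4 h. The list median was -0.74 (0.03 for all genes, and -0.37 with IL-4 and -0.53 with IL-13 against control). Il12b, the p40 subunit shared by IL-12 and IL-23 (chr11:44400063-44414677), was at 5595, 5443 and 3132 CPM at 12 h and 1449, 1843 and 1633 CPM at 24 h. Replicate 3 of 12 h was the lowest of its group and still lay above every 24 h library (log2 fold change -1.52, SE 0.20, FDR 0.000143). Il12a, the p35 subunit that p40 pairs with in IL-12, had a log2 fold change of 0.65 (FDR 0.0114) and was not called. Il27, the p28 subunit of IL-27, was at 175, 169 and 144 CPM at 12 h and 33.3, 49 and 39.2 CPM at 24 h, a 4.01-fold fall (FDR 4.65e-15), after a mean of 2093 CPM at 4 h. Ebi3, its partner chain, fell by 0.48 on the log2 scale (FDR 0.00345), a call lost in 4 of the 6 fits that left out 1 library.

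Within the IL-1 family the antagonist and the agonists fell. Il1rn, which encodes the IL-1 receptor antagonist (chr2:24336860-24351491), was at 3993, 3891 and 5795 CPM at 12 h and 818, 891 and 809 CPM at 24 h, a 5.43-fold fall (log2 fold change -2.44, SE 0.15, FDR 3.94e-10). Il1b was at 6309, 6100.3 and 6240.0 CPM at 12 h and 2885, 3914 and 3748 CPM at 24 h (log2 fold change -0.82, SE 0.10, FDR 9.11e-08). Replicate 3 of 12 h was the highest library for Il1rn, while the 3 libraries of 12 h were alike for Il1b. The difference between these changes was not tested. Il1a (-0.71, FDR 1.59e-06) and Il18 (-1.04, FDR 0.000145) also fell on the log2 scale.

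Il10, an anti-inflammatory cytokine, was at 18.9, 16.4 and 44.7 CPM at 12 h and 9.13, 6.41 and 5.43 CPM at 24 h and fell (log2 fold change -1.96, SE 0.37, FDR 0.000461), with replicate 3 of 12 h the highest. Tnfsf10, the death ligand TRAIL, was at 102, 100.3 and 129.5 CPM at 12 h and 21, 27 and 25.2 CPM at 24 h (log2 fold change -2.18, SE 0.17, FDR 1.85e-13). Il6 was at 268, 246 and 156 CPM at 12 h and 109, 154 and 138 CPM at 24 h, with groups that did not overlap but were close (log2 fold change -0.74, SE 0.17, FDR 0.00611). This call was lost in 3 of the 6 fits that left out 1 library (12 h replicate 2, FDR 0.0279, and 24 h replicates 1 and 3, FDR 0.0249 and 0.0239). Tnf was not called, at 1713, 1844 and 1496 CPM at 12 h and 1689, 1809 and 1769 CPM at 24 h (log2 fold change 0.06, SE 0.08, FDR 0.677), and its groups overlapped. At 4 h Tnf had a mean of 9776 CPM, so that its level at both late times was well below that of 4 h. The upregulated member was Csf1, the macrophage growth factor, with a log2 fold change of 0.52 (FDR 0.00858), a call that was lost in 4 of the 6 fits that left out 1 library.

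**Figure D4:**
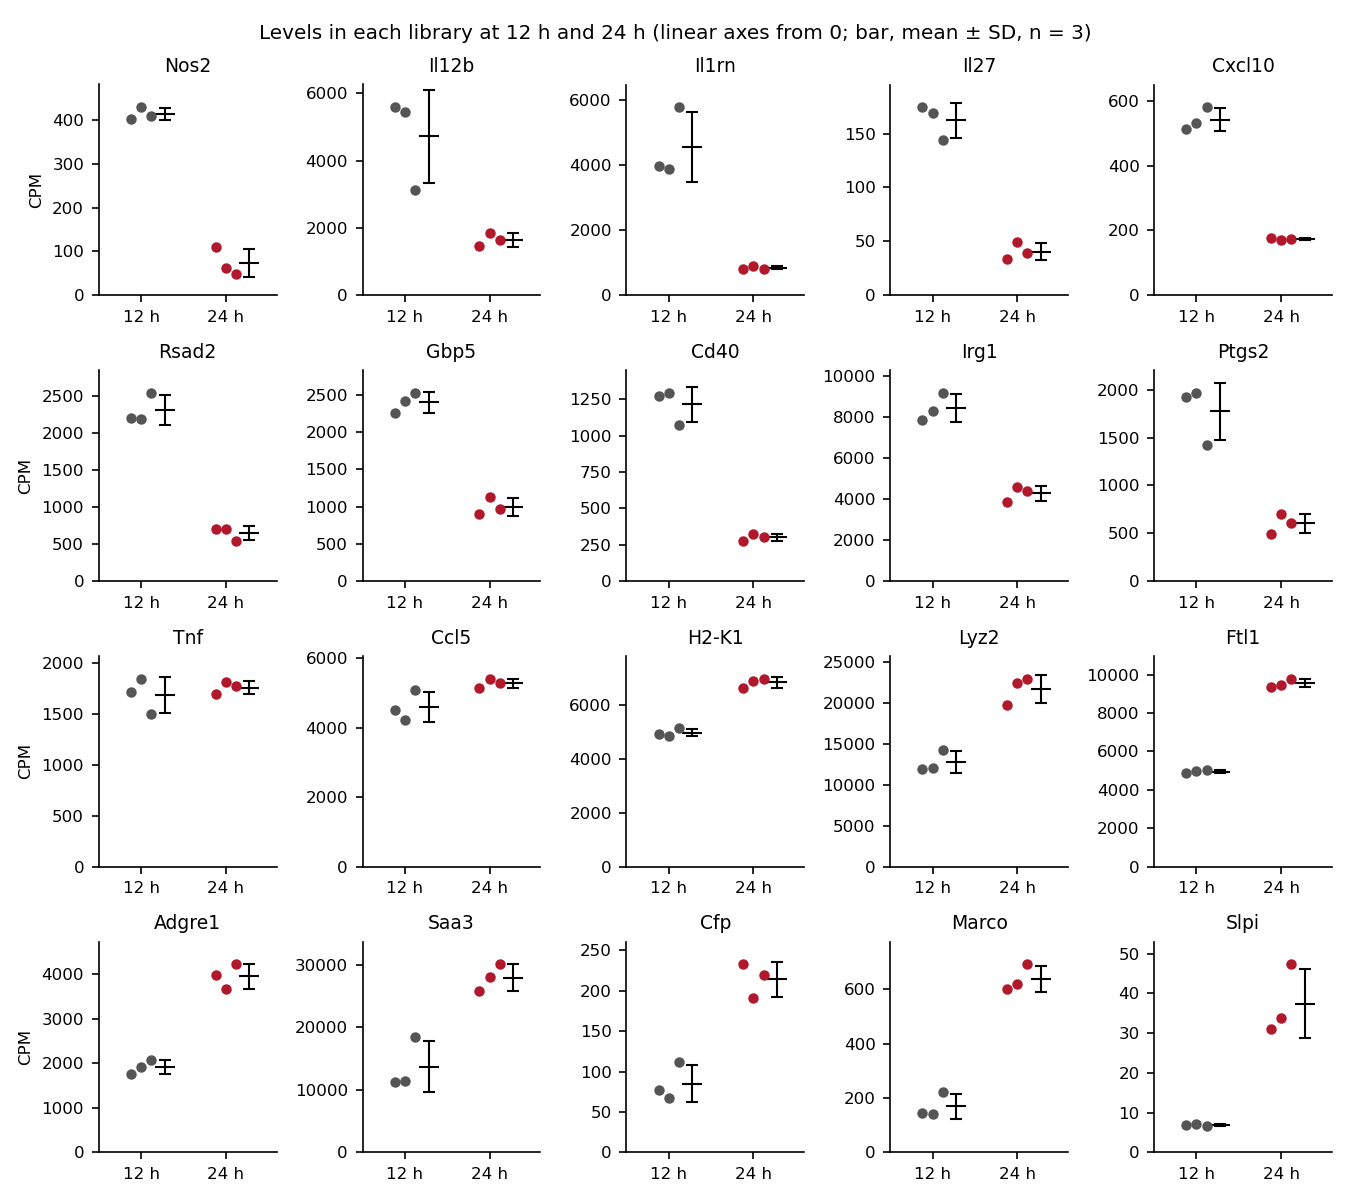
CPM of 20 genes in each library at 12 h (grey) and 24 h (red), on linear axes that start at 0, with the mean and SD of 3 libraries beside the points. The 10 genes of the upper rows, from Nos2 to Ptgs2, are lower at 24 h in every library, Tnf overlaps between the times, and the lower rows hold genes from H2-K1 to Slpi that are higher at 24 h.

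Chemokine genes fell or were not called. Of 18 tested, 7 fell and 0 rose by edgeR, with 1 of 18 higher at an unadjusted p below 0.05 and 0 higher by DESeq2. Of the 18, 17 were induced at 4 h. The share of the list that fell, 38.9%, was near the 39.3% of all genes induced at 4 h. The list median was -0.40 (0.80 with IL-4 and -0.02 with IL-13 against control). Cxcl9, Cxcl10 and Cxcl11, the ligands of CXCR3, which attract activated T and NK cells, fell. Cxcl10 (chr5:92346638-92348889) was at 514, 530.4 and 581 CPM at 12 h and 175, 169.9 and 173 CPM at 24 h, a 3.14-fold fall with little spread at either time (log2 fold change -1.65, SE 0.10, FDR 4.34e-18). Cxcl9 was at 1459, 1499 and 1088 CPM at 12 h and 555, 654 and 603 CPM at 24 h (log2 fold change -1.16, SE 0.10, FDR 2e-11), and Cxcl11 was the member with the largest fall, by 1.97 on the log2 scale (FDR 7.96e-05). Ccl22, a ligand of CCR4, was at 294, 299.8 and 166 CPM at 12 h and 82.6, 86.5 and 98.9 CPM at 24 h (log2 fold change -1.50, SE 0.17, FDR 1.04e-06), with replicate 3 of 12 h again the lowest of its group. Ccl5, Ccl3 and Ccl4, which attract T cells and monocytes, were not called. For Ccl5 the levels were 4504, 4214 and 5069.9 CPM at 12 h and 5142, 5413 and 5275 CPM at 24 h (log2 fold change 0.20, FDR 0.135).

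Genes of the antiviral interferon response fell in most cases. Of 32 tested, all of them induced at 4 h, 18 fell (56.25%, against 39.3% of all genes induced at 4 h) and 2 rose. The list median was -0.58 (-0.05 with IL-4 and -0.07 with IL-13 against control). Cmpk2, a mitochondrial nucleotide kinase, and its neighbour Rsad2, the radical enzyme viperin, fell most. Cmpk2 was at 2234, 2204 and 3355 CPM at 12 h and 669, 704 and 583 CPM at 24 h and Rsad2 at 2193, 2180.3 and 2537 CPM at 12 h and 701, 704 and 540.3 CPM at 24 h, and all 24 h libraries lay below all 12 h libraries for both (3.99-fold, FDR 1.01e-08, and 3.56-fold, FDR 1.54e-15). Among the Ifit genes, whose products bind foreign RNA, Ifit2 was at 2336, 2362 and 2756 CPM at 12 h and 879, 916 and 823 CPM at 24 h (log2 fold change -1.51, SE 0.09, FDR 6.97e-18) and Ifit1 at 2102, 1950.3 and 2354 CPM at 12 h and 871, 1107 and 951 CPM at 24 h (log2 fold change -1.13, SE 0.10, FDR 1.57e-11). Mx1 and Mx2, dynamin-like GTPases, both fell by 1.52 on the log2 scale (FDR 9.25e-16 and 3.85e-13). The genes that rose were Bst2, which tethers virions to the cell surface, and Ifi27l2a. Bst2 was at 838, 847 and 1051 CPM at 12 h and 1246, 1352 and 1299 CPM at 24 h (log2 fold change 0.51, SE 0.09, FDR 2.3e-05), and its mean had been 382 CPM at 4 h. Irf7 was at 1814, 1785 and 1969 CPM at 12 h and 1865, 1919 and 1862 CPM at 24 h and was not called (log2 fold change 0.02, FDR 0.907).

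Guanylate-binding proteins (GBPs) and immunity-related GTPases, IFN-γ-induced GTPases that attack the vacuoles of intracellular pathogens, were the list with the lowest median. Of 16 tested, 14 fell and 0 rose by edgeR, with 0 higher at an unadjusted p below 0.05 and 0 by DESeq2. All 16 were induced at 4 h, and 87.5% fell, against 39.3% of all genes induced at 4 h. The median was -0.98, against 0.20 with IL-4 and 0.23 with IL-13, so that the list median was above 0 in those libraries. Gbp2 was at 2073, 2047 and 2313 CPM at 12 h and 839.7, 956 and 849 CPM at 24 h (log2 fold change -1.28, SE 0.09, FDR 5.14e-16) and Gbp5 at 2257, 2414 and 2530.0 CPM at 12 h and 895, 1129 and 966 CPM at 24 h (log2 fold change -1.27, SE 0.09, FDR 1.19e-15). All 24 h libraries lay below all 12 h libraries for both genes and above the control means of 2.49 and 1.5 CPM. Gbp4 fell most in the family, by 1.72 on the log2 scale (FDR 1.15e-13). Tgtp1 and Tgtp2 are near-identical copies, and reads that match both were left out, which makes their counts uncertain. The same holds among the GBPs.

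**Figure D5:**
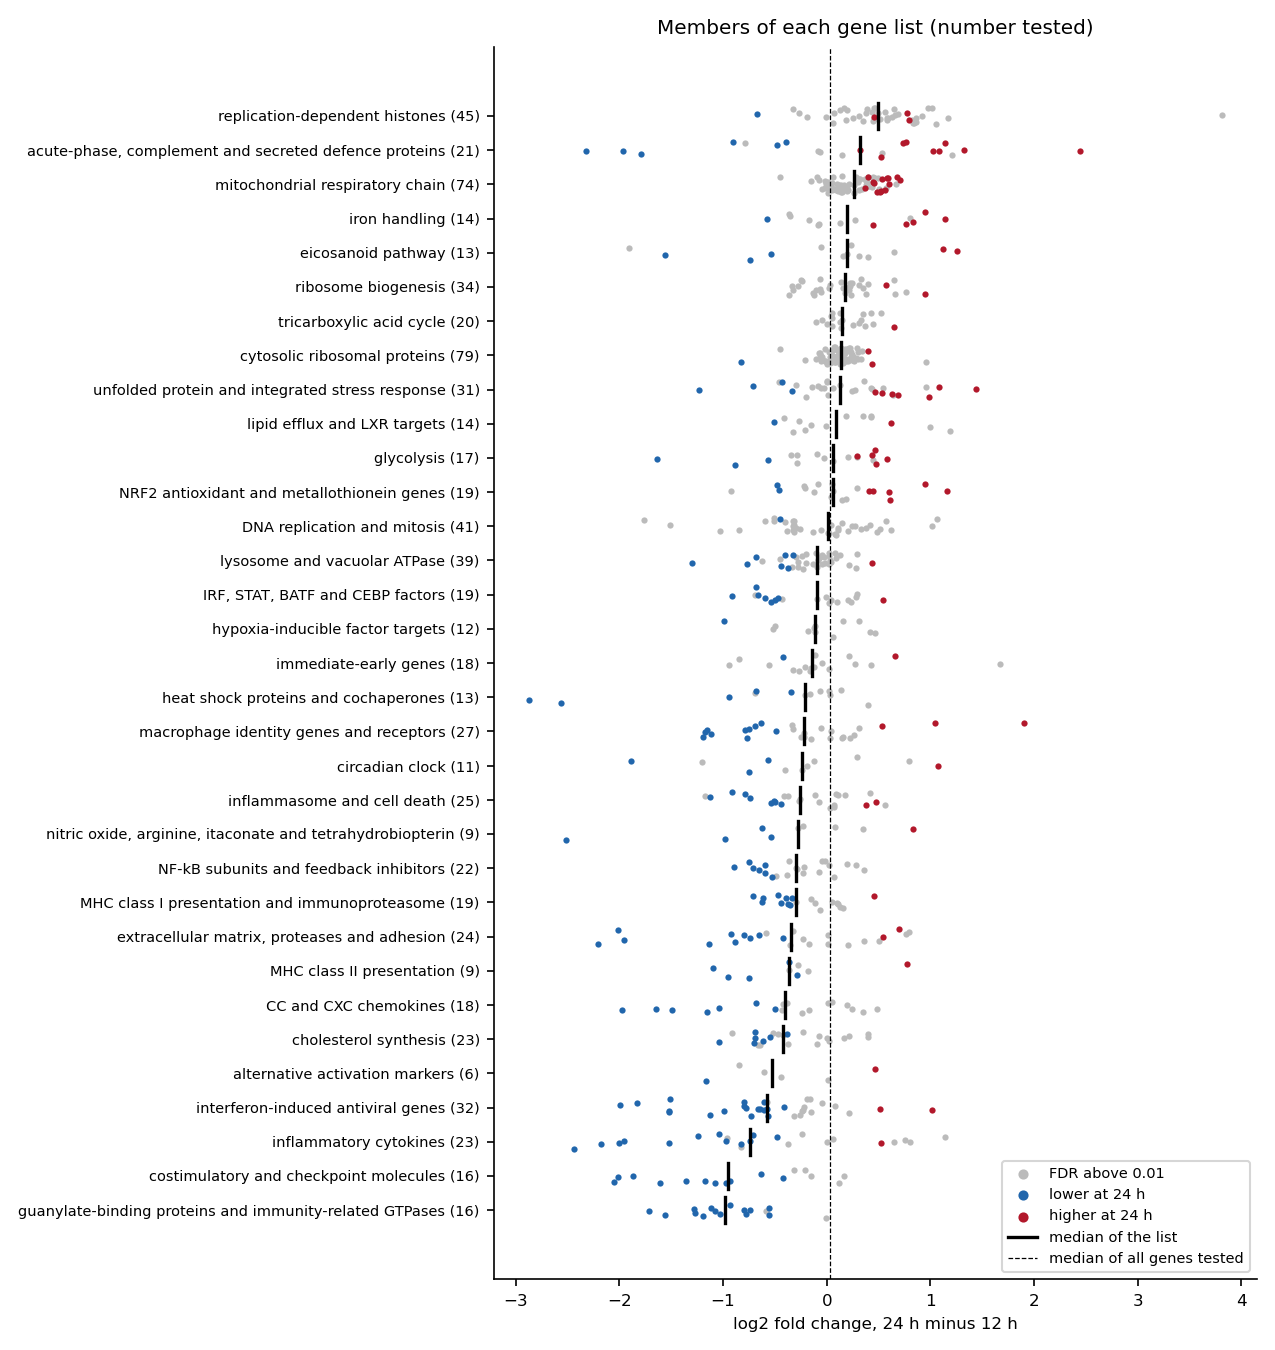
Log2 fold change, 24 h minus 12 h, of each tested member of each gene list except nuclear RNAs and sex-linked genes, with lists ordered by their median (black bar) and the number tested in parentheses. Red and blue points are members called higher and lower at 24 h, grey points were not called, and the dashed line is the median of all genes, 0.03. GBPs and costimulatory molecules are at the bottom, and histones, acute-phase proteins and the respiratory chain at the top.

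Antigen presentation genes fell in about as many cases as they were not called. For MHC class II, 5 of 9 tested genes fell and 1 rose, with a median of -0.36 (0.80 with IL-4 and 0.77 with IL-13). Of the 9, 7 were induced at 4 h, and 55.6% of the list fell, against 39.3% of all genes induced at 4 h. H2-DMa, a chain of the peptide exchange factor H2-DM, was at 76.8, 83.3 and 71.3 CPM at 12 h and 39.7, 34.3 and 34.1 CPM at 24 h (log2 fold change -1.10, SE 0.13, FDR 9.59e-09), while Cd74, the invariant chain, was at 3986, 4070.2 and 3872 CPM at 12 h and 3202, 3334 and 3243 CPM at 24 h and fell by only 0.29 on the log2 scale (FDR 0.00636). The call of Cd74 was lost in 5 of the 6 fits that left out 1 library. The member that rose was Ifi30, a lysosomal thiol reductase (log2 fold change 0.77, FDR 0.00108). For MHC class I and the immunoproteasome, 9 of 19 fell and 1 rose (median -0.30, against 0.34 with IL-4 and 0.34 with IL-13). Of the 19, 18 were induced at 4 h, and 47.4% of the list fell. The one that rose, H2-K1, is a classical class I heavy chain. H2-K1 was at 4936, 4866 and 5139 CPM at 12 h and 6632, 6909.5 and 6988 CPM at 24 h (log2 fold change 0.46, SE 0.08, FDR 1.27e-05). Reads that match several near-identical H2 genes were left out, which makes its counts uncertain. Nlrc5, the transactivator of class I genes, was at 479.6, 478 and 534 CPM at 12 h and 298, 323 and 294 CPM at 24 h and fell (log2 fold change -0.71, SE 0.09, FDR 3.64e-08), as did the peptide transporter Tap2 and the immunoproteasome subunit Psmb9.

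Costimulatory and checkpoint molecules fell, with 11 of 16 tested downregulated and 0 upregulated by edgeR (0 higher at an unadjusted p below 0.05 and 0 by DESeq2), and a median of -0.95 (-0.14 with IL-4 and -0.18 with IL-13). The count of 11 was the same in each of the 6 fits that left out 1 library. Of the 16, 13 were induced at 4 h, and 68.75% of the list fell, against 39.3% of all genes induced at 4 h. Cd40, the receptor for T cell CD40 ligand (chr2:165055614-165071654), was at 1275, 1294 and 1075 CPM at 12 h and 276, 326 and 299 CPM at 24 h, a 4.04-fold fall (log2 fold change -2.01, SE 0.10, FDR 2.35e-20). Cd86, a ligand of CD28, was at 181, 211 and 195 CPM at 12 h and 66.6, 70.1 and 56.2 CPM at 24 h (log2 fold change -1.61, SE 0.12, FDR 4.65e-15). Cd83, a marker of mature antigen-presenting cells, was at 60, 55.2 and 48.9 CPM at 12 h and 16, 12.8 and 10.9 CPM at 24 h (log2 fold change -2.05, SE 0.16, FDR 1.5e-14), and Cd69, an early activation antigen, was at 411, 466 and 534 CPM at 12 h and 110.0, 153 and 124 CPM at 24 h (log2 fold change -1.87, SE 0.12, FDR 1.33e-14). Cd80, the other CD28 ligand, had a log2 fold change of -0.21 (FDR 0.506) and was not called. Cd274, which encodes the inhibitory ligand PD-L1, was at 2126, 2272 and 3082 CPM at 12 h and 1258, 1267 and 1283 CPM at 24 h and fell too (log2 fold change -0.97, SE 0.10, FDR 3e-09), so that members that activate and members that restrain T cells were both among those downregulated.

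Signalling and transcription genes fell in a minority of cases. Of 22 NF-κB subunits and feedback inhibitors, 7 fell and 0 rose by edgeR (1 higher at an unadjusted p below 0.05, 0 by DESeq2). The list median was -0.29 (-0.03 with IL-4 and 0.07 with IL-13). Of the 22, 18 were induced at 4 h, and 31.8% of the list fell, below the 39.3% of all genes induced at 4 h. Tnfaip3, which encodes the deubiquitinase A20, was at 953, 946 and 925 CPM at 12 h and 567, 649 and 649 CPM at 24 h (log2 fold change -0.60, SE 0.09, FDR 4.7e-07), while Nfkbia, the inhibitor IκBα, was not called, at 668, 667 and 651 CPM at 12 h and 651, 644 and 666 CPM at 24 h (log2 fold change -0.02, FDR 0.92). Of 19 IRF, STAT, BATF and CEBP factors (median -0.10, against 0.09 with IL-4 and 0.02 with IL-13), 7 fell and 1, Irf8, rose. The call of Irf8 was lost in 3 of the 6 fits that left out 1 library. Of the 19, 13 were induced at 4 h, and 36.8% of the list fell. Stat3, which transmits IL-10 and IL-6 signals, was at 377, 393 and 474 CPM at 12 h and 197, 227 and 237 CPM at 24 h (log2 fold change -0.91, SE 0.10, FDR 2.74e-10). Hif1a, a driver of glycolytic genes in LPS-stimulated macrophages, was at 408, 419 and 378 CPM at 12 h and 180.3, 212 and 211 CPM at 24 h (log2 fold change -0.99, SE 0.10, FDR 2e-11).

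The genes with the largest rises were mostly low at 12 h. Susd2 was at 2.1, 1.76 and 1.04 CPM at 12 h and 16, 15.1 and 13.2 CPM at 24 h (log2 fold change 3.12, SE 0.42, FDR 1.46e-07). Slpi, an inhibitor of neutrophil proteases with antibacterial activity (chr2:164354070-164356507), was at 6.84, 7.04 and 6.76 CPM at 12 h and 31, 33.9 and 47.3 CPM at 24 h, and the 3 libraries of 12 h were nearly equal (log2 fold change 2.44, SE 0.29, FDR 6.76e-08). Ptprm, Slco4a1, Trpm2 (a cation channel opened by oxidative stress), Spn, Abcc3, Ly6i, Cd1d1, Trem3 and Gpr162 complete the leading genes with Marco, with log2 fold changes of 1.84 to 2.84. Abcc3 was at 15.3, 19.9 and 19.8 CPM at 12 h and 103, 64.6 and 84.2 CPM at 24 h, against a control mean of 119 CPM, so that its 24 h level was nearer to control than its 12 h level. Ly6i was at 21, 16.4 and 30.2 CPM at 12 h and 82.6, 106 and 85.3 CPM at 24 h, with a control mean of 0 CPM, and it belongs to a family of near-identical genes.

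Secreted defence proteins were the group with the most upregulated members among the immune lists. Of 21 tested acute-phase, complement and defence genes, 9 (42.9%) rose and 6 (28.6%) fell, with a median of 0.32 (0.02 with IL-4 and 0.00 with IL-13). With 1 library left out, 7 to 11 rose. The call of C1qa (log2 fold change 0.32) was lost in 5 of these 6 fits. Its partner chains C1qb (-0.48) and C1qc (-0.39) fell, and these calls were kept in all 6. Saa3, an acute-phase protein made by macrophages (chr7:46711998-46719615), was at 11265, 11470.1 and 18414 CPM at 12 h and 25740.1, 28031 and 30046 CPM at 24 h, which made it one of the most abundant messages (log2 fold change 1.03, SE 0.13, FDR 4.79e-06). Replicate 3 of 12 h lay between its group and the 24 h libraries. Lyz2, the macrophage lysozyme, was at 11872, 12083 and 14275 CPM at 12 h and 19685, 22392 and 22966 CPM at 24 h (log2 fold change 0.77, SE 0.09, FDR 8.24e-10). Reads that also match Lyz1 were left out, which makes its counts uncertain. Cfp, which encodes properdin, the stabilizer of the alternative complement convertase, was at 77.3, 66.9 and 111 CPM at 12 h and 233, 190.5 and 219 CPM at 24 h (log2 fold change 1.32, SE 0.13, FDR 6.07e-11). Lcn2, a siderophore-binding protein, was at 384, 384 and 727 CPM at 12 h and 1020.4, 1156 and 1130.3 CPM at 24 h (log2 fold change 1.14, SE 0.23, FDR 0.00412). Its call was lost in 4 of the 6 fits that left out 1 library (FDR 0.0147 to 0.0185), and without replicate 3 of 12 h its log2 fold change was 1.52. Those that fell included Serpina3f and Serpina3g, near-identical serpins.

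Surface receptors moved in both directions. Of 27 macrophage identity genes and receptors, 10 (37.0%) fell and 3 (11.1%) rose, against 8.9% and 5.31% of all genes tested. Without replicate 3 of 12 h, 6 rose. The list median was -0.22 (-0.17 with IL-4 and -0.08 with IL-13). Marco, a scavenger receptor for bacteria (chr1:120474538-120505024), was at 145, 142 and 222 CPM at 12 h and 599.7, 619 and 691 CPM at 24 h, a 3.75-fold rise (log2 fold change 1.91, SE 0.12, FDR 1.19e-15), from a control mean of 0 CPM. Adgre1, which encodes F4/80, was at 1766, 1914 and 2080.0 CPM at 12 h and 3976, 3661 and 4222 CPM at 24 h (log2 fold change 1.04, SE 0.09, FDR 1.99e-13). Clec7a, the β-glucan receptor dectin-1, was at 109, 111 and 106 CPM at 12 h and 38.3, 52.7 and 50.8 CPM at 24 h (log2 fold change -1.19, SE 0.15, FDR 6.76e-08), and Mertk, a receptor for apoptotic cells, was at 58.9, 63.4 and 46.3 CPM at 12 h and 25.1, 23.4 and 26 CPM at 24 h (log2 fold change -1.17, SE 0.15, FDR 5.2e-08). Tlr9 fell by 1.16 on the log2 scale (FDR 1.27e-06), whereas Tlr4 had a log2 fold change of -0.05 and Csf1r of 0.23, and neither was called.

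Iron storage genes rose. Ftl1, the ferritin light chain, was at 4886, 4957 and 5006 CPM at 12 h and 9375, 9471 and 9789.5 CPM at 24 h (log2 fold change 0.95, SE 0.09, FDR 2.24e-12), and Fth1, the heavy chain, at 6449.7, 6384 and 7007 CPM at 12 h and 9401, 9404 and 8298 CPM at 24 h (log2 fold change 0.45, SE 0.09, FDR 9.29e-05). Slc11a1, the phagosomal metal transporter Nramp1, was at 345, 341 and 370.4 CPM at 12 h and 716, 568 and 598 CPM at 24 h (log2 fold change 0.83, SE 0.09, FDR 9.98e-10). In the iron list 5 of 14 tested genes (35.7%) rose and 1 (7.14%) fell, against 5.31% and 8.9% of all genes tested. The list median was 0.20 (-0.24 with IL-4 and -0.07 with IL-13), and 3 rose without replicate 2 of 12 h or replicate 3 of 24 h. Ferritin transcripts have pseudogene copies, which makes their counts uncertain. Of 19 NRF2 antioxidant and metallothionein genes (median 0.06, against -0.28 with IL-4 and -0.29 with IL-13), 6 (31.6%) rose and 2 (10.5%) fell. The 2 that fell were the reductases Txnrd1 and Gsr. Gpx1, a glutathione peroxidase, was at 91.5, 90.9 and 92.6 CPM at 12 h and 192, 209.7 and 212 CPM at 24 h (log2 fold change 1.16, SE 0.11, FDR 2.91e-12).

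Matrix genes mostly fell or were not called, and eicosanoid genes moved both ways. Of 24 matrix, protease and adhesion genes (median -0.34, against -0.03 with IL-4 and -0.06 with IL-13), 10 (41.7%) fell and 2 (8.33%) rose. The rises, of Tgfbi and Serpinb2, were lost in DESeq2. Leaving out 1 library lost the call of Tgfbi in 5 of the 6 fits and that of Serpinb2 in 3. Mmp13, a collagenase, was at 391, 453 and 816 CPM at 12 h and 109, 125 and 125 CPM at 24 h (log2 fold change -2.21, SE 0.24, FDR 3.29e-05), with replicate 3 of 12 h the highest. Plaur, the urokinase receptor, was at 130.4, 131 and 134 CPM at 12 h and 29.7, 35.3 and 32.6 CPM at 24 h (log2 fold change -2.02, SE 0.12, FDR 9.23e-18). Vcan, the proteoglycan versican, was at 61.5, 59.3 and 76.5 CPM at 12 h and 16, 18.8 and 16.3 CPM at 24 h (log2 fold change -1.95, SE 0.18, FDR 2.3e-12). Of 13 eicosanoid genes, 3 (23.1%) fell and 2 (15.4%) rose (median 0.19, against 0.15 with IL-4 and 0.03 with IL-13). Over all genes tested, 8.9% fell and 5.31% rose. Ptgs2, the inducible cyclooxygenase (chr1:150100031-150108234), was at 1926, 1971 and 1429 CPM at 12 h and 494, 701 and 611 CPM at 24 h (log2 fold change -1.56, SE 0.15, FDR 2.64e-07), while Ptgir, the prostacyclin receptor, was at 17.4, 19.9 and 16.1 CPM at 12 h and 35.1, 41.2 and 40 CPM at 24 h (log2 fold change 1.13, SE 0.17, FDR 1.81e-06). Outside these lists, Hdc, which makes histamine, was at 49.4, 49.3 and 56.2 CPM at 12 h and 12.3, 5.49 and 7.76 CPM at 24 h (log2 fold change -2.60, SE 0.21, FDR 5.94e-14). Lipg, the endothelial lipase gene, had the largest fall of the genes named here, at 45.2, 42.8 and 131 CPM at 12 h and 3.19, 2.29 and 3.49 CPM at 24 h (log2 fold change -4.58, SE 0.65, FDR 0.000885), with replicate 3 of 12 h far above its group, and in a fit of only the 6 libraries its FDR was 0.0144. AA467197 (chr2:122637887-122641076) was at 434, 428 and 553 CPM at 12 h and 46.5, 72.8 and 59.3 CPM at 24 h (log2 fold change -2.98, SE 0.12, FDR 2.54e-24).

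Of 13 heat shock genes (median -0.21, against 0.24 with IL-4 and 0.27 with IL-13), 5 fell and 0 rose by edgeR (0 higher at an unadjusted p below 0.05, 0 by DESeq2). Hspa1a was at 22.1, 20.5 and 12.5 CPM at 12 h and 2.74, 1.83 and 2.72 CPM at 24 h (log2 fold change -2.87, SE 0.36, FDR 2.12e-08), and Hspa1b, a near-identical copy, fell by 2.57 on the log2 scale. Hspa8, the constitutive chaperone, was at 2570.1, 2639 and 2516 CPM at 12 h and 1526, 1693 and 1600.0 CPM at 24 h (log2 fold change -0.68, SE 0.08, FDR 8.19e-09). In the unfolded protein and integrated stress response list, 7 of 31 (22.6%) rose and 4 (12.9%) fell. Over all genes tested these shares were 5.31% and 8.9%. The list median was 0.13 (0.23 with IL-4 and 0.29 with IL-13). Ddit3 (CHOP) was at 28.9, 27.6 and 23.4 CPM at 12 h and 47.9, 59.5 and 51.2 CPM at 24 h and rose (log2 fold change 0.99, SE 0.16, FDR 4.79e-06), as did Atf5 (log2 fold change 1.08, FDR 3.72e-07). Psat1, a serine synthesis enzyme and target of the same ATF4 pathway, was at 64.7, 71 and 57.2 CPM at 12 h and 20.1, 34.3 and 27.5 CPM at 24 h and fell (log2 fold change -1.23, SE 0.16, FDR 2.44e-08). Slc7a11, the cystine importer, also fell, at 1193, 1151 and 895 CPM at 12 h and 567, 708 and 697 CPM at 24 h (log2 fold change -0.71, SE 0.10, FDR 3.25e-07).

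Metabolic genes changed by small amounts, with a few exceptions. Of 17 glycolysis genes, 5 (29.4%) rose (3 without replicate 2 of 12 h) and 3 (17.6%) fell. Over all genes tested these shares were 5.31% and 8.9%. The median of 0.06 changed sign over the alternatives, from -0.05 to 0.20 (0.10 with IL-4 and 0.11 with IL-13). Pfkfb3, which makes the activator of phosphofructokinase, was at 509, 508 and 811 CPM at 12 h and 222, 179 and 186 CPM at 24 h (log2 fold change -1.64, SE 0.15, FDR 4.57e-08), whereas Pkm, pyruvate kinase, was at 1748, 1853 and 2413 CPM at 12 h and 2678, 2767 and 2937 CPM at 24 h (log2 fold change 0.48, SE 0.09, FDR 5.27e-05). In cholesterol synthesis, 7 of 23 fell (4 without replicate 2 of 12 h) and 0 rose by edgeR (0 higher at an unadjusted p below 0.05, 0 by DESeq2), with a median of -0.42 (-0.00 with IL-4 and -0.02 with IL-13). Fdps, farnesyl diphosphate synthase, was at 79.4, 93.9 and 71.8 CPM at 12 h and 39.2, 41.2 and 38.8 CPM at 24 h (log2 fold change -1.04, SE 0.13, FDR 2.66e-08).

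For the mitochondrial respiratory chain, 14 of 74 subunits (18.9%, against 5.31% of all genes tested) rose. By edgeR 0 fell (0 lower at an unadjusted p below 0.05, 0 by DESeq2). DESeq2 called 5 higher, and the count ran from 5 to 21 over the alternatives, with a median of 0.26. The same list had medians of 0.27 with IL-4 and 0.25 with IL-13 against control, about as high. Without 12 h replicate 1, 12 h replicate 2 or 24 h replicate 2 the count was 8, 8 and 6. These are short transcripts, and genes in the shortest 1 of 5 equal groups by longest transcript had medians of 0.14 from 12 h to 24 h, 0.13 with IL-4 and 0.10 with IL-13, against -0.03, -0.10 and -0.11 in the longest group. By GC content, the medians from 12 h to 24 h ran from -0.11 in the lowest of 5 groups to 0.18 in the highest, while with IL-4 they were 0.02 and -0.03 and with IL-13 0.05 and -0.06. The part of length and GC content in the results was not tested.

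Few genes of cell division and of protein synthesis were called, which does not show that the others were unchanged. Of 41 DNA replication and mitosis genes (median 0.01, against -0.25 with IL-4 and -0.40 with IL-13) 1 fell, Pcna, at 115, 127 and 133 CPM at 12 h and 84.4, 85.2 and 104 CPM at 24 h (log2 fold change -0.45, SE 0.11, FDR 0.0025), a call lost in 4 of the 6 fits that left out 1 library, and 0 rose by edgeR (1 at an unadjusted p below 0.05, 0 by DESeq2). Of 79 cytosolic ribosomal protein genes, 2 rose (1 to 4 with 1 library left out, and up to 13 over all alternatives) and 1, Rpl22l1, fell, a call lost in all 6 fits that left out 1 library (0.13, against 0.28 with IL-4 and 0.17 with IL-13). Replication-dependent histones had the highest list median, 0.49 (-0.66 with IL-4 and -0.80 with IL-13). Of 45 tested, 40 had a log2 fold change above 0 (the median of all genes tested was 0.03), and 18 were higher at an unadjusted p below 0.05. Of all 9568 genes tested, 3159 had such a p in either direction. Only 3 (6.67%) were called higher (1 without replicate 2 of 12 h or replicate 2 or 3 of 24 h) and 1 (2.22%) lower. Over all genes tested these shares were 5.31% and 8.9%. Among 11 clock genes 3 (27.3%) fell and 1 (9.09%) rose (median -0.24, against -0.50 with IL-4 and -0.43 with IL-13). Nr1d2, the repressor REV-ERBβ, was at 55.2, 58.7 and 65 CPM at 12 h and 14.1, 17.9 and 16.3 CPM at 24 h (log2 fold change -1.89, SE 0.16, FDR 5.23e-13), while Cry1, which represses CLOCK and BMAL1, was at 18.4, 14.7 and 20.3 CPM at 12 h and 34.2, 40.3 and 38.8 CPM at 24 h (log2 fold change 1.08, SE 0.18, FDR 9.6e-06). Of 25 inflammasome and cell death genes (median -0.25, against 0.08 with IL-4 and 0.06 with IL-13), 8 (32%) fell and 2 (8%) rose. At most 1 rose in each fit that left out 1 library.

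The remaining lists are given beside the shares over all genes tested, 5.31% higher and 8.9% lower. Of 39 lysosome and vacuolar ATPase genes (median -0.09, against 0.16 with IL-4 and 0.17 with IL-13), 7 (17.9%) fell and 1 (2.56%) rose. Atp6v0d2, a subunit of the proton pump, fell most. Of 18 immediate-early genes (median -0.14, against 0.23 with IL-4 and 0.12 with IL-13), Jun rose and Atf3 fell, and both calls were lost in several of the fits that left out 1 library (3 and 4 of 6). In the hypoxia-inducible factor list (median -0.11, against -0.19 with IL-4 and -0.27 with IL-13) 1 of 12 genes fell, Hif1a itself, and 0 rose by edgeR (2 higher at an unadjusted p below 0.05, 0 by DESeq2). Of 14 lipid efflux genes (median 0.09, against -0.06 with IL-4 and -0.04 with IL-13), Nr1h3, the nuclear receptor LXRα, rose and Pltp fell. In the citric acid cycle (median 0.14, against 0.19 with IL-4 and 0.21 with IL-13) 1 of 20 genes rose, Mdh2, and 0 fell by edgeR (0 lower at an unadjusted p below 0.05, 0 by DESeq2). Of 34 ribosome biogenesis genes, 2 rose, Nop14 and Tsr1, and 0 fell by edgeR (0 lower at an unadjusted p below 0.05, 0 by DESeq2). DESeq2 called 1 higher, and the count was 0 to 2 with 1 library left out. The list median was 0.18, against 0.28 with IL-4 and 0.22 with IL-13. Among 6 tested alternative activation markers (median -0.52, against 0.08 with IL-4 and 0.16 with IL-13), Tgm2 fell and Stab1 rose. Of 22 nuclear and small RNAs and 5 sex-linked genes, 0 were called by edgeR or DESeq2, with 0 and 1 at an unadjusted p below 0.05. The medians of these last lists were 0.19, against -0.16 with IL-4 and -0.29 with IL-13, and -0.11, against 0.14 with IL-4 and 0.25 with IL-13.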

How the data were processed

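RNA-seq of rRNA-depleted RNA with a directional library kit was analysed. The authors processed the reads with CASAVA 1.8.2, Trimmomatic 0.33 and STAR 2.5.1 on mm10, per the labels' processing notes, and deposited raw whole-number counts for 24411 gene symbols per sample, with no normalization and with reads that match several genes left out. The annotation release is not given in the sources used here. Counts on the sense strand were used without Rn45s, and the rows that name no gene were left out (reads on no gene were 63.0% to 66.5% of uniquely mapped reads in the 6 samples). In R 4.3.3, edgeR 4.0.16 fitted the 15 control and IFN-γ with LPS samples together (filterByExpr, TMM, robust quasi-likelihood test), with Benjamini-Hochberg adjustment (FDR) over the 9568 genes tested. CPM are TMM-normalized, and the standard error (SE) was obtained by dividing the size of the log2 fold change by the root of the F statistic. With 1751350 to 2532496 counts left per sample, genes of few counts have wide errors. Counts were also simulated with a dispersion of 0.02 for all genes and libraries, with the changed genes drawn from those of higher counts at 12 h. No simulated library stood apart as replicate 3 of 12 h did, so recovery in the real data may be lower. In the simulation edgeR recovered 98 of 100 genes changed 4-fold and 63 of 100 changed 2-fold with 3 false calls. DESeq2 1.42.0 recovered 93 and 54 with 1. RefSeq GRCm38.p6, which has the coordinates of mm10, gave gene positions and promoters, and GENCODE M21 transcript lengths. Figures used Python 3.11.15 and matplotlib 3.10.9.

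Named genes were the 12 largest rises and 12 largest falls (FDR at most 0.01, groups not overlapping, at least 10 CPM in the higher group), up to 4 members per list with the largest called change and up to 2 with the highest level, and 12 genes fixed by name. The other genes named beside them, Bst2 and Ifit1 among them, were chosen after their values were seen. The members and the 35 lists were chosen with earlier results of these data known. Alternatives were DESeq2, other normalizations and filters, a fold change of 1.5 as the null hypothesis, unstranded counts, Rn45s kept, thinned counts, a fit of the 6 samples alone, a replicate block and leaving out each library. The list counts without each library and the medians by length and GC content were added after seeing the data. A few genes are not reported here.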

Additional observations from a re-analysis of the deposited data

How the results depend on the processing

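DESeq2 called 289 genes upregulated instead of 508. With a fold change of 1.5 as the null hypothesis, 51 genes were upregulated and 174 downregulated, and 48 upregulated by at least 2-fold. With at least 10 counts in each of the 6 samples, 81 genes rose by at least 2-fold. Leaving out 1 library at a time gave 337 to 479 upregulated and 724 to 803 downregulated genes, and by at least 2-fold 114 to 166 and 203 to 234, the lowest upregulated count being without replicate 1 of 12 h. A fit of the 6 samples alone gave 353 upregulated and 675 downregulated genes. This fit and the other alternatives kept these 4 counts within 1.5 times. Of the 184 named genes tested, none of the alternatives reversed a called direction, and 228 calls of single genes under single alternatives were lost. Whether replicate numbers pair the samples cannot be settled from these values. The deviations of same-numbered libraries correlated at 0.00269 to 0.176 (mean 0.117), and those of libraries with different numbers at -0.191 to 0.0481 (mean -0.0592). The replicate block gave 548 upregulated and 908 downregulated genes (140 and 228 by at least 2-fold). Time and the library difference seen in the antisense shares cannot be told apart. A fold change of a gene near 0 counts depends on the prior count.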

Other observations

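Some upregulated genes outside the lists were abundant or low before stimulation, and were chosen after their values were seen. Kctd12 was at 442, 450.0 and 562 CPM at 12 h and 1499, 1515 and 1716 CPM at 24 h (log2 fold change 1.70, SE 0.10, FDR 1.28e-18), with a mean of 224 CPM in control. Siglec1, which encodes sialoadhesin, was at 155, 154 and 201 CPM at 12 h and 655, 335 and 498 CPM at 24 h (log2 fold change 1.54, SE 0.22, FDR 0.000261). Siglece, an inhibitory sialic acid receptor, was at 38.4, 32.3 and 43.7 CPM at 12 h and 131, 109.9 and 125 CPM at 24 h (log2 fold change 1.67, SE 0.14, FDR 5.23e-13), against 0.499 CPM in control. All 24 h libraries lay above all 12 h libraries for these 3 genes.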
